A study of Oryzias latipes with 27 samples.

Results

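The genes described here are the nuclear genes of oxidative phosphorylation in the gonads of medaka (Oryzias latipes), a freshwater fish with XX females and XY males. They were taken by symbol alone: every gene of the deposited count table whose symbol begins with nduf, sdha, sdhb, sdhc, sdhd, uqcr, cox4 to cox8, atp5 or cycs, which gave 61 of 26099 genes. The 61 genes comprised 34 subunits of complex I, 7 assembly factors of complex I (ndufaf2 to ndufaf8), 2 subunits of complex II (sdhc and sdhd), 4 assembly factors of complex II (sdhaf1 to sdhaf4, caught by the sdha stem) and 14 genes of ATP synthase. No symbol beginning with uqcr, cox4 to cox8 or cycs was found, and 15565 of the 26099 genes carry only a LOC number and could not be assigned to a complex. Respiratory genes among them, and the genes encoded in mitochondrial DNA, were not analysed here.

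Oxidative phosphorylation takes place in the inner membrane of mitochondria. Complex I oxidises NADH and complex II oxidises succinate, and both pass electrons on towards complexes III and IV and oxygen. Complexes I, III and IV pump protons, and ATP synthase lets the protons flow back through its membrane ring of c subunits while its catalytic head makes ATP. Assembly factors help to build a complex without remaining in the finished enzyme. The roles given below are known mainly from mammals and fungi. In the ovary, mitochondria multiply as oocytes grow and are passed to the embryo. In the testis, they serve dividing and differentiating germ cells, and each sperm keeps only a few around the base of its tail.

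The study followed the development of ovary and testis by poly(A) RNA-seq, with gonads taken 10 days (D10), 30 days (D30) and 120 days (D120) after hatching. WT_Fe_Ov are ovaries of wild-type XX females, WT_Ma_Te are testes of wild-type XY males, and MT_Fe_Ov are ovaries of XY females from a line in which the male-determining gene DMY was disrupted by TALENs. These 3 kinds of gonad at 3 stages gave 9 groups, each with 3 libraries described as biological replicates. MT_Fe_Ov comes from a single mutant line, how many fish went into a library is not stated in the sources used here, and the D10 samples contained gonadal primordia with tissue around them.

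The 27 libraries held between 5551651 and 17586392 counts (median 12200597), and a count of 3 amounted to 0.540 CPM, counts scaled to a common library total, in the smallest. The D30 MT_Fe_Ov libraries held 6301347, 6977685 and 10129588 counts, against 14855932 to 15297992 in D30 WT_Fe_Ov. Uniquely aligned pairs in the paper differed far less, so a smaller share of them was counted in D30 MT_Fe_Ov. Comparisons with D30 MT_Fe_Ov hold this difference, and its part was not tested. The lowest count of ndufs1 in any library was 5, and the lowest of any other of the 61 genes was 42. All 61 had the total count of at least 1 needed to be tested in every comparison. The labels of tissue were checked with marker genes as summed levels, each level being the FPKM (fragments scaled to exon length and library total) rescaled with TMM factors so that libraries can be set side by side. Of the oocyte markers, 5 of 8 were found, and their sum was 2074 to 2128 in D30 WT_Fe_Ov against 37.5 to 43.9 in D30 WT_Ma_Te. Of the testis and male germ cell markers, 7 of 11 were found, and their sum was 1489 to 1638 in D30 WT_Ma_Te against 109 to 143 in D30 WT_Fe_Ov. Most of this sum was gsdf, with mean levels of 1404 and 95.1. The other markers had means of 0.25 (tekt4) to 79.4 (amh) in D30 WT_Ma_Te, and only tekt4 was higher in D30 WT_Fe_Ov (1.06). In D30 MT_Fe_Ov the oocyte markers summed to 1993 to 2418 and the testis and male germ cell markers to 66.6 to 210. The D10 libraries stood apart: oocyte markers summed to at most 10.9, while muscle markers (4 of 23 found) summed to 55.0 to 341 and liver markers (3 of 13 found) to 92.3 to 1083. Changes from D10 to D30 were therefore not tested. At D30, the pancreas markers cpb1 and pla2g1b (2 of 17 found) summed to 339 to 441 in WT_Ma_Te, 108 to 190 in WT_Fe_Ov and 0.70 to 3.45 in MT_Fe_Ov. The part of these tissues in the results below was not tested. By the paper's quality tables, the D30 WT_Ma_Te libraries had more read pairs than all others for similar total bases, thus shorter reads. They also had the lowest share of aligned reads. Every comparison with D30 WT_Ma_Te holds this difference, which cannot be told apart from tissue and stage.

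The summed level of the 61 genes was higher in the D120 ovaries than in the D120 testes, and with TMM scaling also higher than in all D30 gonads. The WT_Fe_Ov libraries held 5412.5, 5344 and 5516 at D30, and by D120 they held 10558, 8568 and 8807. The MT_Fe_Ov libraries held 5967, 7557 and 5080.2 at D30, and by D120 8967, 10051 and 8765. The WT_Ma_Te libraries held 5838, 6418 and 5743 at D30, and by D120 5378, 5389 and 5410. At D120 all ovary libraries lay above all testis libraries, and at D30 the 2 kinds of ovary and the testis lay close together. The place of the D30 testis depended on the scaling, because the TMM factors at D30 were 0.775 to 0.802 in WT_Fe_Ov and 1.49 to 1.50 in WT_Ma_Te: without them, the mean sum of the deposited FPKM was 4290 in D30 WT_Fe_Ov and 8957 in D30 WT_Ma_Te. The deposited FPKM of the D120 libraries summed to 9299, 7960.2 and 7672 in WT_Fe_Ov, 8029, 8791 and 8024 in MT_Fe_Ov and 5854, 5979 and 6254 in WT_Ma_Te, so that the D30 testis then overlapped with the D120 ovaries. At D10 the sums were 8869, 7634 and 8887 in WT_Fe_Ov, 8511, 7942 and 8676 in MT_Fe_Ov, and 6630, 9278 and 4777 in WT_Ma_Te, and the groups overlapped.

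**Figure D1:**
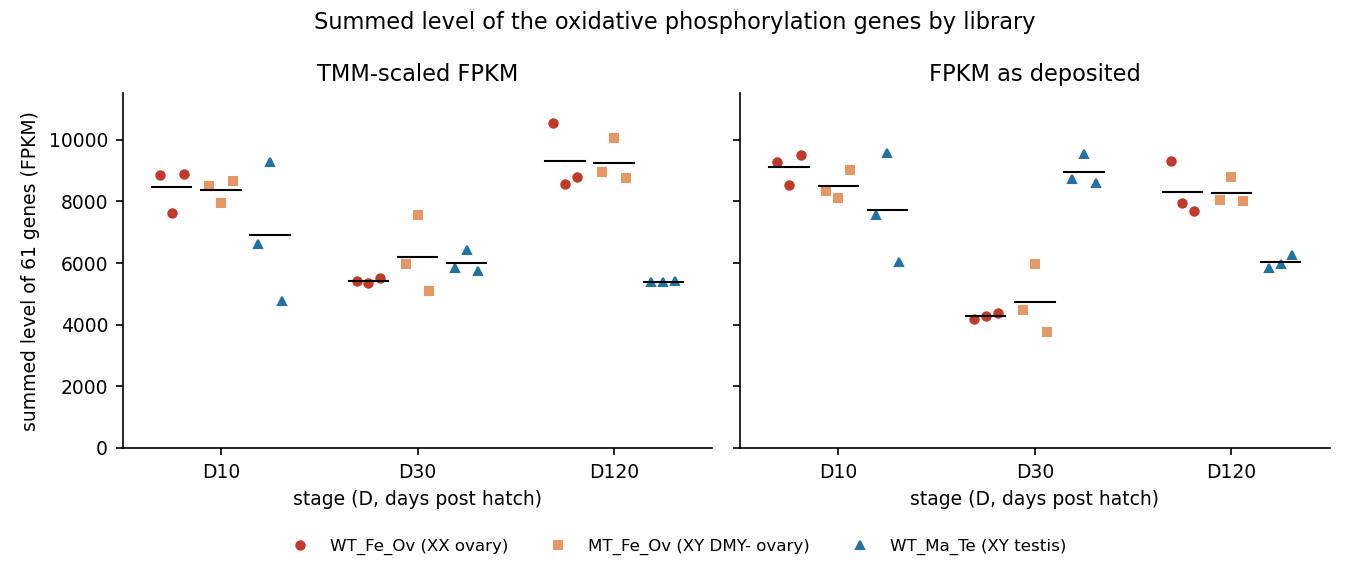
Summed level of the oxidative phosphorylation genes (vertical axes) by stage in days post hatch (horizontal axes), as TMM-scaled FPKM (left) and as deposited FPKM (right), with 1 point per library and a bar at the mean of each group. In TMM-scaled FPKM the D120 ovary libraries sit between 8568 and 10558, above the D120 testis libraries at 5378 to 5410, and the D30 testis differs between the panels, with means of 6000 and 8957.

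Single genes differed widely in level. Averaged over all 27 libraries, atp5f1b, the catalytic beta subunit of ATP synthase, had the highest level at 513, and the lowest were sdhaf3 at 16.0, ndufaf2 at 14.2 and ndufs1 at 5.68. The 61 genes lie on 24 chromosomes of the build ASM223467v1, all are annotated as protein-coding, and their exons add up to 385 to 2087 bases with a median of 697 bases, against 2408 bases for all genes. This shortness bears on several results below and is given beside them.

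At D10, none of the 61 genes passed the test between any of the 3 kinds of gonad (edgeR's quasi-likelihood test, adjusted p of at most 0.05 over all genes tested and at least a 2-fold difference). Of all genes tested, 0.00814% were called in either direction between WT_Fe_Ov and WT_Ma_Te, 0.110% between MT_Fe_Ov and WT_Ma_Te, and 0.374% between WT_Fe_Ov and MT_Fe_Ov, so this test made few calls of any kind. The paper, with DESeq2 and the thresholds given in its table of differentially expressed genes, lists more genes for each of these comparisons. Between WT_Fe_Ov and WT_Ma_Te the log2 fold changes of the 61 genes ran from -0.56 to 0.56 with a median of 0.17, against -0.04 for all genes, 0 had an unadjusted p under 0.05, and the lowest adjusted p of edgeR was 0.674. Between MT_Fe_Ov and WT_Ma_Te, 6 of the 61 had an unadjusted p under 0.05, as had 3990 of all 24536 genes tested. Between WT_Fe_Ov and MT_Fe_Ov, 5 of the 61 had, as had 4638 of 24605. DESeq2 also called 0 in these 3 comparisons. Without replicate 1 of WT_Ma_Te, 3 genes were called between MT_Fe_Ov and WT_Ma_Te, 1 higher and 2 lower.

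At D30, most assembly factors of complex I had a higher level in the ovary than in the testis, while the subunits of complex I that were called had a lower one. In WT_Fe_Ov against WT_Ma_Te, 6 of the 61 genes were higher and 6 lower. Of the 6 higher genes, 5 were assembly factors of complex I (ndufaf2, ndufaf4, ndufaf6, ndufaf7 and ndufaf8), and of the 6 lower genes, 5 were subunits of complex I (ndufs1, ndufb4, ndufa2, ndufb2 and ndufa12). The others were atp5f1b, which was higher in the ovary, and atp5mpl, a small membrane subunit of ATP synthase, which was lower. In bulk tissue, fewer cells of a type and less RNA per cell cannot be told apart.

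Set against the rest of the transcriptome, these counts were low. Of all genes tested at D30, 22.2% were called higher in WT_Fe_Ov and 35.6% lower, and without the fold threshold 33.2% and 42.8%. Without it, 21 of the 61 genes were higher and 35 lower. The median log2 fold change of the 61 genes was -0.25, against -0.56 for all genes tested and -1.56 for genes with exons of at most 697 bases. Both references include genes with few counts. Other genes with a mean count of at least 100 had a median of 0.27, above that of the 61. By exon length the 61 and these other genes had -0.48 and -0.66 up to 600 bases, -0.10 and -0.10 between 600 and 1000, and 0.29 and 0.31 above 1000. By class the medians were 1.90 for the 7 assembly factors of complex I, 0.69 for the 4 of complex II, -0.25 for the 14 ATP synthase genes, -0.44 for the 34 complex I subunits and -0.68 for sdhc and sdhd. Scaled to library totals instead of with TMM factors, the log2 fold change of all genes shifted by a median of -0.95 and the calls became 2 higher and 37 lower. With an offset for exon length, which removes the trend of fold change with length, they became 10 higher and 1 lower, and the median of the 61 genes turned to 0.27 and that of the complex I subunits to 0.08.

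**Figure D2:**
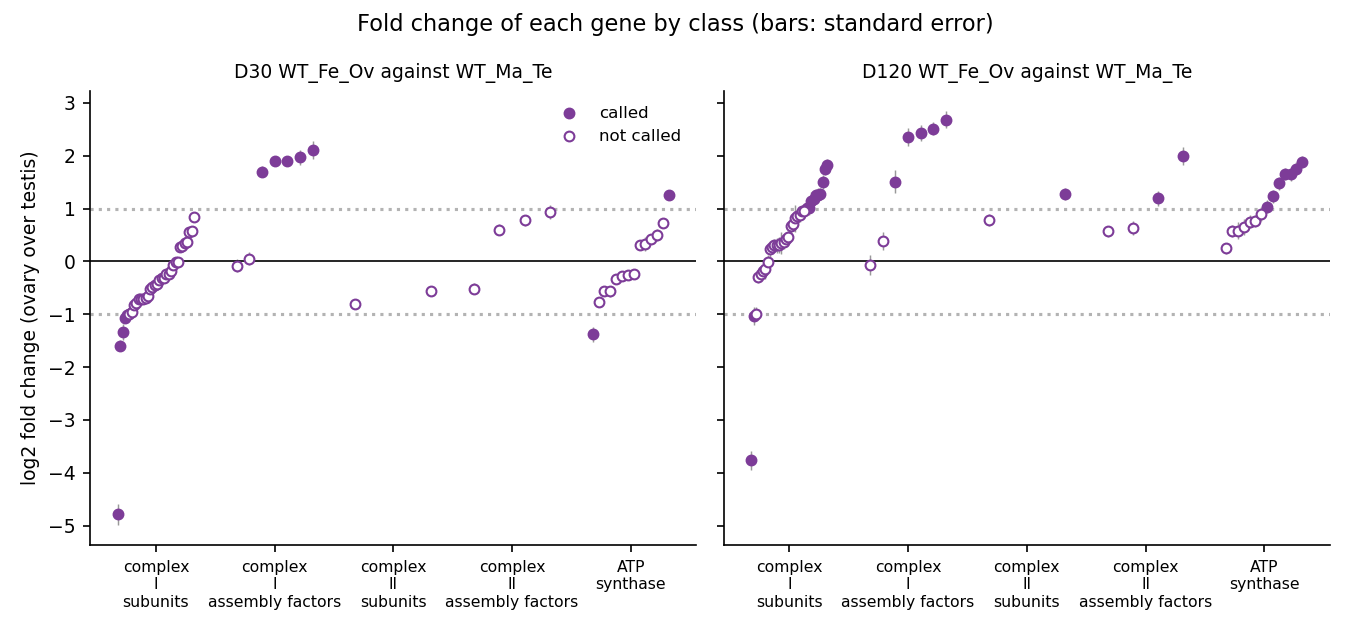
Log2 fold change of each oxidative phosphorylation gene for WT_Fe_Ov against WT_Ma_Te at D30 (left) and D120 (right), ordered by size within its class, with the standard error as a bar, called genes filled and dotted lines at the fold threshold. The 5 called complex I assembly factors stand at 1.70 to 2.11 at D30 and at 1.51 to 2.68 at D120, and the lowest point in both panels is ndufs1 at -4.78 and -3.77.

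The 5 assembly factors kept their higher level in the ovary at D120, where they were called again together with 20 other genes. The gene ndufaf2 (chr9:9261384-9274540), which binds a late intermediate of complex I, had levels of 18.9, 25.3 and 21.9 in D30 WT_Fe_Ov against 4.96, 6.20 and 6.21 in D30 WT_Ma_Te, a log2 fold change of 1.97 ± 0.14 (SE, adjusted p = 8.15e-11). At D120 it had 22.6, 27.1 and 21.7 against 4.85, 4.07 and 4.96 (2.36 ± 0.17). Every ovary library was thus above every testis library at both stages, whereas all 9 D10 libraries held 6.44 to 11.01.

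The gene ndufaf4 (chr24:21369922-21372935), an early-acting assembly factor, had levels of 57.8, 55.4 and 55.4 in D30 WT_Fe_Ov and 15.1, 16.9 and 14.4 in D30 WT_Ma_Te (1.90 ± 0.09, adjusted p = 3.76e-13). Its level was 78.2, 62.6 and 68.1 in D120 WT_Fe_Ov and 11.8, 13.3 and 11.5 in D120 WT_Ma_Te (2.51 ± 0.13, adjusted p = 2.14e-08). The libraries within each group lay close together and the groups did not overlap. The gene ndufaf8 (chr19:3983593-3985129), a small partner of the assembly factor NDUFAF5 in humans, had levels of 34.7, 49.1 and 45.8 against 8.85, 13.6 and 8.49 at D30 (2.11 ± 0.17, adjusted p = 1.27e-09). At D120 it had 109.7, 85.8 and 83.3 against 16.6, 17.2 and 17.8 (2.43 ± 0.15), and it was the only one of the 7 called in WT_Fe_Ov from D30 to D120 at the 2-fold threshold (1.13 ± 0.15). Without that threshold 3 of the 7 were higher and 1 lower, and with the length offset ndufaf8 had 0.18 and was not called. Its partner ndufaf5 showed no such difference (-0.08 at D30 and -0.07 at D120, not called).

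The gene ndufaf6 (chr16:25701130-25724780) had levels of 35.4, 34.7 and 35.0 in D30 WT_Fe_Ov and 9.55, 12.5 and 11.2 in D30 WT_Ma_Te (1.70 ± 0.11). At D120 the ovary held 36.5, 34.4 and 31.6 and the testis 6.22, 5.06 and 4.63 (2.68 ± 0.16, adjusted p = 6.80e-08), and in the testis it fell by 1.07 on the log2 scale from D30 (SE 0.17). The gene ndufaf7 (chr24:22318079-22333589), a mitochondrial methyltransferase, had levels of 44.3, 39.9 and 38.7 against 12.1, 10.5 and 11.3 at D30 (1.90 ± 0.10). At D120 its levels were more spread, 18.9, 29.0 and 34.5 against 10.7, 10.2 and 8.05 (1.51 ± 0.21), and the groups still did not overlap. The remaining factor ndufaf3, which acts with ndufaf4, was not called (0.05 and 0.38). Summed over the 7 factors, the mean level was 257 in D30 WT_Fe_Ov, 261 in D30 MT_Fe_Ov and 114 in D30 WT_Ma_Te, and 307, 331 and 98.5 at D120, against 99.0 to 113 at D10.

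The 5 genes were called in WT_Fe_Ov against WT_Ma_Te at D30 under every alternative tried except scaling to library totals. That scaling shifted all genes by a median of -0.95, and 2 of the 7 factors were then higher and 1 lower by the same thresholds. In the deposited FPKM, which is scaled to library totals, each WT_Fe_Ov library at D30 was still above each WT_Ma_Te library in all 5. With an offset for exon length they had 1.83 (ndufaf2), 1.77 (ndufaf4), 1.56 (ndufaf6), 1.72 (ndufaf7) and 2.61 (ndufaf8), all called.

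**Figure D3:**
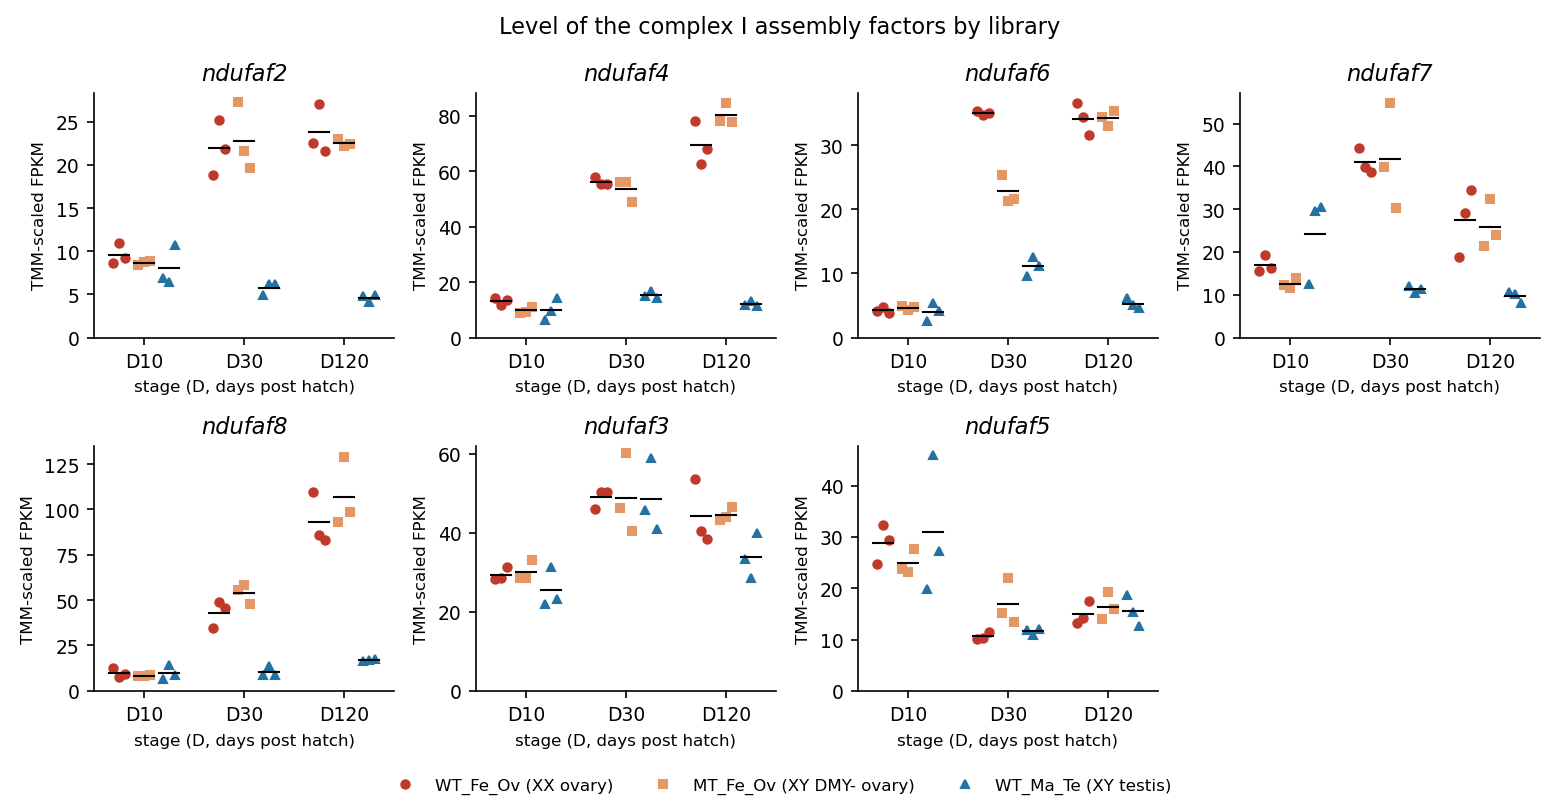
Level of each complex I assembly factor in TMM-scaled FPKM (vertical axes) by stage in days post hatch (horizontal axes), with 1 point per library and a bar at the mean of each group. For ndufaf2, ndufaf4, ndufaf6, ndufaf7 and ndufaf8 the ovary libraries lie above the testis libraries at D30 and D120, while for ndufaf3 and ndufaf5 the groups lie near each other.

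The opposite case was ndufs1 (chr21:22885380-22891599), the largest core subunit of complex I, which carries iron-sulfur clusters of its electron path. Its level was 0.311, 0.397 and 0.527 in D30 WT_Fe_Ov, 0.666, 1.24 and 0.351 in D30 MT_Fe_Ov and 11.8, 11.7 and 11.8 in D30 WT_Ma_Te. In counts these were 7, 9 and 12, then 6, 13 and 5, and then 589, 517 and 574, so the ovary levels rest on few reads. The log2 fold change in WT_Fe_Ov was -4.78 ± 0.20 (adjusted p = 3.17e-14), and -4.10 ± 0.40 in MT_Fe_Ov.

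At D120, ndufs1 had levels of 2.05, 1.60 and 1.81 in WT_Fe_Ov, 2.16, 1.10 and 3.39 in MT_Fe_Ov and 28.3, 23.0 and 22.9 in WT_Ma_Te, and it remained lower in the ovary (-3.77 ± 0.18, adjusted p = 1.38e-08). It rose from D30 to D120 in WT_Fe_Ov (2.15 ± 0.34) and in WT_Ma_Te (1.07 ± 0.11), where it had 0.97 and was not called without D120 replicate 1. At D10 it held 1.73 to 4.13 in all libraries. Of the other 33 subunits of complex I, ndufv3 had the lowest mean in all 9 groups, 8.98 to 40.9, which was above ndufs1 in every group but D120 WT_Ma_Te (18.3 against 24.8), and the median of the other 33 was 70.8 in D30 WT_Fe_Ov and 139.7 in D120 WT_Fe_Ov. Whether a gene with only a LOC number encodes a further copy was not tested.

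Further subunits were lower in the D30 ovary by smaller factors. The accessory subunit ndufb4 (chr20:15087875-15091193) had levels of 28.0, 30.2 and 32.8 in D30 WT_Fe_Ov against 96.2, 97.9 and 88.3 in WT_Ma_Te (-1.60 ± 0.11, adjusted p = 6.28e-11). At D120 it had 52.6, 45.3 and 36.1 against 78.8, 100.2 and 95.0 (-1.03 ± 0.17), which lies at the threshold: it was -0.9995 with DESeq2 and -0.98 after a filter on low counts, and no longer called. Nor was it called without WT_Fe_Ov replicate 3 (-0.88), WT_Ma_Te replicate 2 (-0.96) or WT_Ma_Te replicate 3 (-0.9997). With the length offset it was -0.80 at D30 and -1.73 at D120. The accessory subunits ndufa2 (-1.34 ± 0.14), ndufb2 (-1.08 ± 0.09) and ndufa12 (-1.01 ± 0.10) and the ATP synthase subunit atp5mpl (-1.38 ± 0.14) were lower at D30 and not called at D120. With the length offset, only ndufs1 of the 6 lower genes was called at D30, and atp5mpl had -0.35.

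The catalytic subunit atp5f1b (chr2:16318689-16322171) was the only ATP synthase gene called higher in D30 WT_Fe_Ov. Its level was 675, 569 and 616 in WT_Fe_Ov, 694, 694 and 702 in MT_Fe_Ov and 264, 267 and 268 in WT_Ma_Te (1.26 ± 0.07 for WT_Fe_Ov, adjusted p = 8.51e-12). At D120 it was 494, 455 and 466 in WT_Fe_Ov and 191, 162 and 155 in WT_Ma_Te (1.48 ± 0.13). The ovary libraries were above the testis libraries at both stages. The size at D30 rested on the TMM scaling: in the deposited FPKM, atp5f1b had 523, 457 and 489.9 in WT_Fe_Ov and 396, 398 and 401 in WT_Ma_Te. Scaling to library totals shifted all genes by a median of -0.95, and 0 ATP synthase genes were then called higher and 8 lower. The share of all genes called under that scaling is not given.

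At D120, the ovary had the higher level for most of the 61 genes, although the direction in complex I subunits depended on whether exon length was allowed for. In WT_Fe_Ov against WT_Ma_Te, 25 genes were higher and 2 lower, where 23.6% of all genes tested were higher and 29.6% lower. Without the fold threshold 44 were higher and 4 lower, against 30.7% and 35.6%. The median log2 fold change was 0.82, against -0.31 for all genes tested and -0.30 for those with exons of at most 697 bases. Both references include genes with few counts. Other genes with a mean count of at least 100 had 0.07 at all lengths. At up to 600 bases they had 0.79, where the 61 had 0.47. All 14 ATP synthase genes had positive values and 7 of them were called, as were 10 of 34 complex I subunits, 5 of 7 and 2 of 4 assembly factors of complexes I and II, and sdhd of the 2 complex II subunits. The 2 lower genes were ndufs1 and ndufb4.

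In ATP synthase, the called genes included the peripheral stalk subunit atp5pd (1.88 ± 0.12), the c subunit atp5mc3 (1.75 ± 0.12), and atp5f1e (1.65 ± 0.13) and atp5f1c (1.65 ± 0.11) of the central stalk. In complex I, the largest values among the subunits were those of the core subunits ndufs3 (1.82 ± 0.12) and ndufv1, which binds FMN and oxidises NADH (1.74 ± 0.10), followed by the accessory subunits ndufa6 (1.50 ± 0.14), ndufab1, the mitochondrial acyl carrier protein (1.28 ± 0.11), and ndufb8 (1.26 ± 0.12). In complex II, the membrane anchor sdhd had levels of 145.1, 116 and 117 in WT_Fe_Ov and 50.7, 56.1 and 49.7 in WT_Ma_Te (1.27 ± 0.12). The factor sdhaf2, needed to attach FAD to the catalytic subunit of complex II, had 90.0, 82.2 and 56.5 against 19.6, 18.1 and 19.7 (1.99 ± 0.17), and sdhaf3 had 35.0, 25.7 and 33.8 against 14.0, 13.5 and 13.9 (1.19 ± 0.15). The groups did not overlap in these 3 genes.

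The D120 difference was spread unevenly over gene lengths. Among genes with a mean count of at least 100, those of the 61 with exons of more than 1000 bases had a median log2 fold change of 1.22, against -0.01 for other genes of that length. At up to 600 bases the medians were 0.47 and 0.79, and between 600 and 1000 bases 0.84 and 0.86. With the length offset 10 genes were higher and 5 lower, and the 10 higher genes were all among the 25. These 10 were atp5f1b, atp5pd, ndufaf2, ndufaf4, ndufaf6, ndufaf7, ndufaf8, ndufs3, ndufv1 and sdhaf2. The rest of the 25, among them atp5mc3, atp5f1e, atp5f1c, ndufa6, ndufab1, ndufb8, sdhd and sdhaf3, were not called higher. The 5 lower genes were all complex I subunits, a class with 2 higher and a median of -0.16 under the offset, and 0 of the 2 complex II subunits were called. Scaled to library totals, 14 were higher and 3 lower.

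From D30 to D120, subunits of complex I rose together in the wild-type ovary. In WT_Fe_Ov, 25 of the 61 genes rose and 0 fell, where 12.3% of all genes tested rose and 8.86% fell. Without the fold threshold 54 rose and 2 fell, against 22.1% and 21.6%. Of the 25, 18 were among the 34 complex I subunits, all 34 of which had positive values with a median of 1.15, while the 7 assembly factors had a median of 0.14 and 1 call (ndufaf8). The other calls were 4 ATP synthase genes (atp5md, atp5mpl, atp5f1e and atp5mf) and sdhaf3 and sdhaf4. The median of all 61 was 0.82, against 0.07 for all genes tested and 0.82 for genes with exons of at most 697 bases. The assembly factors ndufaf2 and ndufaf4 to ndufaf7 have exons of 1256 to 1731 bases, and the called ndufaf8 has 674. The difference between subunits and assembly factors is thus not separated from exon length here.

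Genes that rose in WT_Fe_Ov included ndufv3 (chr21:31109851-31114652), an accessory subunit at the NADH-oxidising end of complex I, with 9.50, 8.89 and 8.55 at D30 and 41.9, 37.9 and 30.7 at D120 (2.06 ± 0.13, adjusted p = 1.08e-06). The small ATP synthase subunit atp5md had 55.2, 72.0 and 78.7 at D30 and 321, 262 and 204 at D120 (1.96 ± 0.18, adjusted p = 7.86e-06). In both, every D120 library was above every D30 library by more than 2-fold. Smaller rises were those of ndufa2 (1.85 ± 0.17), ndufb3 (1.59 ± 0.11), ndufs4 (1.43 ± 0.14), ndufb8 (1.40 ± 0.11) and ndufa7 (1.31 ± 0.12). The level of atp5f1b went the other way (-0.37, under the fold threshold).

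This rise was shared by short genes at large. Among genes with a mean count of at least 100, the median log2 fold change in WT_Fe_Ov was 1.19 for the 21 of the 61 genes with exons of up to 600 bases and 0.90 for the 141 other genes of that length, 0.88 against 0.57 between 600 and 1000 bases, and 0.54 against -0.17 above 1000 bases. With an offset for exon length 2 genes rose, ndufs1 and ndufv3, and the median of the 61 was 0.04. Whether the dependence on length arose in the tissue or in the preparation of the libraries was not tested.

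**Figure D4:**
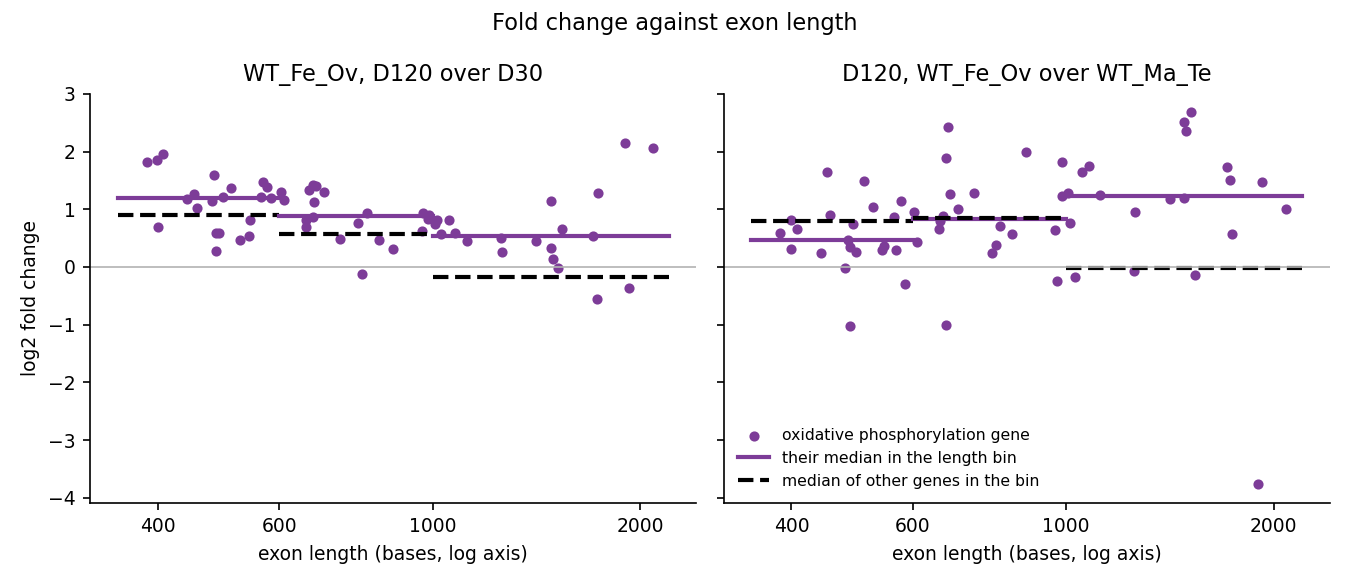
Log2 fold change (vertical axes) of each oxidative phosphorylation gene (points) against its exon length in bases (horizontal axes, logarithmic), for D120 against D30 in WT_Fe_Ov (left) and for WT_Fe_Ov against WT_Ma_Te at D120 (right). Lines are medians in 3 bins of length over genes with a mean count of at least 100, for these genes (solid) and all others (dashed): in the left panel both fall with length, from 1.19 and 0.90 to 0.54 and -0.17, and in the right panel they part above 1000 bases, at 1.22 and -0.01.

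In the testis the same interval brought changes in both directions. In WT_Ma_Te, 3 of the 61 genes rose (ndufs4, atp5md and ndufs1) and 6 fell (atp5mc3, ndufab1, ndufs3, sdhd, ndufaf6 and ndufa3), where 17.8% of all genes tested rose and 21.3% fell. Without the fold threshold 16 rose and 25 fell, against 29.6% and 31.9%. The median of the 61 genes was -0.05, against -0.11 for all genes tested and 0.08 for other genes with a mean count of at least 100. By class it ran from -0.62 for ATP synthase to 0.06 for complex I subunits and 0.32 for complex II assembly factors, while sdhd had -1.16 and sdhc -0.84. Scaled to library totals, 2 rose and 18 fell, and with the length offset 8 rose and 2 fell, of which 3 and 2 were called the same way without it.

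The c subunit atp5mc3 (chr21:22385043-22387200) fell from 319.6, 408 and 282 in D30 WT_Ma_Te to 99.7, 99.3 and 94.5 in D120 WT_Ma_Te (-1.78 ± 0.12, adjusted p = 6.63e-08), while in WT_Fe_Ov it had 223, 223 and 219 and then 384, 299.8 and 304. The core subunit ndufs3 (chr3:203944-214997) fell from 97.1, 105.8 and 95.8 to 43.1, 42.8 and 40.8 (-1.24 ± 0.09, adjusted p = 6.92e-08), and ndufab1 from 209, 266 and 173 to 96.7, 85.8 and 84.6 (-1.28 ± 0.14). In these 3 genes the D120 testis libraries were the lowest of all at the later stages. The accessory subunit ndufs4 (chr9:5724081-5747545), by contrast, rose from 69.1, 82.7 and 72.4 to 226, 246 and 245 (1.68 ± 0.09, adjusted p = 9.81e-09). It also rose in WT_Fe_Ov, from 43.1, 51.0 and 41.6 to 146.0, 105.9 and 107.4, and had the highest mean level of the 34 complex I subunits in D120 WT_Ma_Te.

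**Figure D5:**
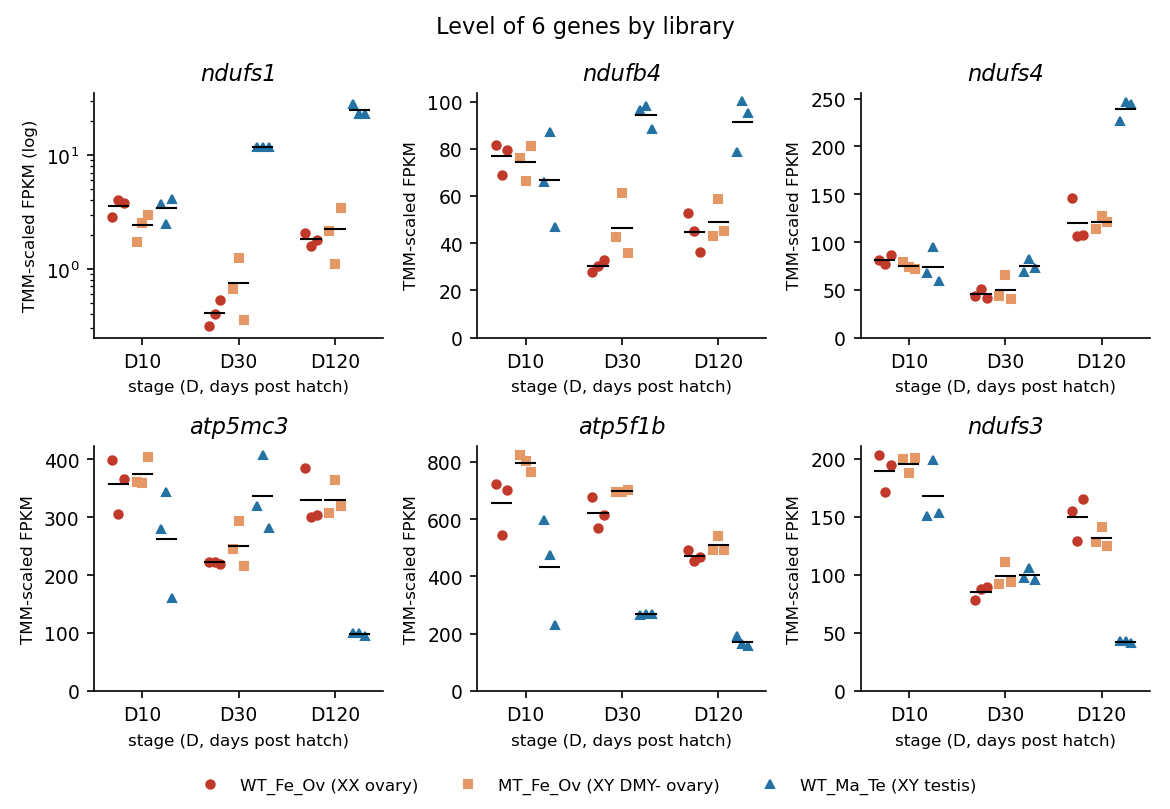
Level in TMM-scaled FPKM (vertical axes, logarithmic for ndufs1) of ndufs1, ndufb4, ndufs4, atp5mc3, atp5f1b and ndufs3 by stage in days post hatch (horizontal axes), with 1 point per library and a bar at the mean of each group. In ndufs1 the D30 and D120 ovary libraries lie at 0.311 to 3.39 under testis libraries at 11.7 to 28.3, and in atp5mc3 and ndufs3 the D120 testis is the lowest of the later groups.

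The change of the ovary to testis difference between D30 and D120 was tested itself, as an interaction term in 1 fit. The difference moved towards the ovary for 28 of the 61 genes and towards the testis for 0, where 20.8% of all genes tested moved towards the ovary and 18.7% towards the testis. The median of the 61 was 0.98, against 0.12 for all genes tested and 0.97 for genes with exons of at most 697 bases. The calls comprised 15 of 34 complex I subunits, 9 of 14 ATP synthase genes, both complex II subunits and 2 of 4 complex II assembly factors, but 0 of 7 complex I assembly factors. Of these factors, ndufaf2 and ndufaf4 to ndufaf7 have exons of 1256 to 1731 bases, above the median of 697 for the 61. Class and exon length are thus not separated in these counts. The largest values were those of atp5mc3 (2.32 ± 0.18, adjusted p = 1.04e-08), ndufs3 (2.01 ± 0.15, adjusted p = 3.90e-09) and atp5f1e (1.99 ± 0.17, adjusted p = 2.05e-08). Above 1000 bases the median was 0.80 against -0.29 for other genes, and at up to 600 bases 1.10 against 1.22. With the length offset 3 genes moved towards the ovary and 7 towards the testis, and of the 28 only atp5mc3, ndufs3 and ndufv3 were still called.

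The XY ovaries of MT_Fe_Ov were set against the same testis libraries, so their values are not independent of those of WT_Fe_Ov and are given beside them. At D30, 6 of the 61 genes were higher in MT_Fe_Ov than in WT_Ma_Te and 6 lower, where 19.2% and 33.5% of all genes tested were called. The higher genes were ndufaf8 (2.28 in MT_Fe_Ov and 2.11 in WT_Fe_Ov), ndufaf2 (1.87 and 1.97), ndufaf7 (1.78 and 1.90), ndufaf4 (1.69 and 1.90), atp5f1b (1.28 and 1.26) and atp5s (1.21 in MT_Fe_Ov). The lower genes included ndufs1, sdhc (-1.26 ± 0.21), the core subunits ndufv2 (-1.18 ± 0.15) and ndufs7 (-1.03 ± 0.17), and ndufb4 (-1.12 ± 0.22). The factor ndufaf6 had 0.93 and was not called. The median was -0.17, against -0.75 for all genes tested and 0.15 for other genes with a mean count of at least 100. Among genes with a mean count of at least 100, the 61 and others had -0.38 and -0.48 up to 600 bases. Between 600 and 1000 bases they had 0.05 and -0.07, and above 1000 bases 0.19 and 0.17. Scaled to library totals, 2 of the 61 were higher and 31 lower. With the length offset 8 were higher and 4 lower, with a median of 0.14. All 6 higher genes and 4 of the 6 lower genes kept their call.

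At D120, 29 of the 61 genes were higher in MT_Fe_Ov than in WT_Ma_Te and 1, ndufs1, was lower, where 24.1% and 30.1% of all genes tested were called. The median was 0.94, against -0.30 for all genes tested, which include genes with few counts. Other genes with a mean count of at least 100 had 0.11. Among genes with that count, the 61 and others had 0.54 and 0.79 up to 600 bases. Between 600 and 1000 bases they had 1.06 and 0.84, and above 1000 bases 1.26 and 0.04. The assembly factors ndufaf4 (2.77 ± 0.09), ndufaf6 (2.74 ± 0.12) and ndufaf8 (2.68 ± 0.14) had the largest values, and the levels of ndufaf4 were 78.2, 84.5 and 77.8 in MT_Fe_Ov. Scaled to library totals, 15 were higher and 3 lower, and with the length offset 11 and 4. From D30 to D120, 12 genes rose in MT_Fe_Ov and 0 fell, where 8.66% and 8.75% of all genes tested did. They were led by atp5md (1.89 ± 0.26), ndufv3 (1.49 ± 0.13) and ndufa7 (1.48 ± 0.22). This count rested on 1 library: MT_Fe_Ov replicate 2 at D30 had a summed level of 7557, against 5967 and 5080.2 in the other libraries, and 26 genes rose without it.

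Between the 2 kinds of ovary, no gene of the 61 passed the thresholds at D30 or D120. The D30 libraries of MT_Fe_Ov also held fewer counts than those of WT_Fe_Ov, which cannot be told apart from the genotype. At D30, 1.68% of all genes tested were called, and the 61 had a median of -0.18 for WT_Fe_Ov against MT_Fe_Ov, against 0.04 for all genes tested. Other short genes shared this shift. Among genes with a mean count of at least 100, the 61 and others had -0.23 and -0.35 up to 600 bases. Between 600 and 1000 bases they had -0.17 and -0.18, and above 1000 bases -0.02 and 0.0003. With the length offset the median of the 61 was 0.11. An unadjusted p under 0.05 was reached by 18 of the 61 and by 4705 of all 23842 genes. Without the fold threshold edgeR called 2: ndufaf6, higher in WT_Fe_Ov (35.4, 34.7 and 35.0 against 25.4, 21.4 and 21.6, log2 fold change 0.62 ± 0.13, adjusted p = 0.0472), and ndufv3, lower (9.50, 8.89 and 8.55 against 15.1, 14.5 and 14.3, -0.71 ± 0.14, adjusted p = 0.0430). Neither pair of groups overlapped, but such separation was common. Of the 61, 7 lay higher and 15 lower in WT_Fe_Ov without overlap, and the share over all genes is not given. DESeq2 and a fit of all 27 libraries each called 2 lower genes at the full thresholds, and edgeR called 3 lower genes without replicate 3 of MT_Fe_Ov. At D120, 0.104% of all genes tested were called, the log2 fold changes of the 61 ran from -0.38 to 0.29 with 2 at an unadjusted p under 0.05 (1693 of all 24122 genes), DESeq2 called 0, and the lowest adjusted p of edgeR was 0.506. These ranges bound the estimates only, and do not show that the ovaries were alike.

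Other genes that build the respiratory complexes or express mitochondrial DNA, taken from lists of known genes, were described in the same comparisons. Of 36 listed assembly factors outside the 61 genes, 12 were found, and 7 of them were higher in D30 WT_Fe_Ov than in D30 WT_Ma_Te and 0 lower, with a median log2 fold change of 1.24, against 22.2% higher, 35.6% lower and a median of -0.56 for all genes tested. They were the complex I factors timmdc1 (2.46 ± 0.09), acad9 (2.20 ± 0.09) and ecsit (1.20 ± 0.09), the ATP synthase factors tmem70 (1.51 ± 0.13) and atpaf2 (1.29 ± 0.11), the complex III factor lyrm7 (1.32 ± 0.16) and lrpprc, which stabilises mitochondrial mRNAs (1.56 ± 0.08). At D120, 5 were higher and 1 lower, with a median of 0.98, against 23.6%, 29.6% and -0.31 for all genes, led by lyrm7 (3.34 ± 0.13), tmem70 (2.53 ± 0.13) and timmdc1 (2.07 ± 0.15), and the ATP synthase factor atpaf1 was the lower one (-1.11 ± 0.18). Genes outside the 61 with a mean count of at least 100 had medians of 0.27 at D30 and 0.07 at D120. Scaling to library totals shifted all genes by a median of -0.95 at D30 and -0.32 at D120. Calls in the lists outside the 61 genes were not examined under that scaling.

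Of 18 listed regulators of mitochondrial DNA and its transcription, 14 were found, of which 5 were higher and 1 lower at D30 and 5 higher and 2 lower at D120, with medians of 0.51 and -0.09, beside the same shares and medians of all genes. Among genes outside the 61 with a mean count of at least 100, the medians were 0.27 at D30 and 0.07 at D120. The mitochondrial RNA polymerase polrmt had 2.16 ± 0.09 and 1.42 ± 0.16, its transcription factor tfb2m 1.13 ± 0.11 and 1.79 ± 0.17, the mitochondrial poly(A) polymerase mtpap 1.18 ± 0.09 and 1.99 ± 0.13, and the coactivator pprc1 1.53 ± 0.08 and 2.04 ± 0.13. The nuclear receptor esrrb was lower at both stages (-4.15 ± 0.43 and -3.25 ± 0.36), and the coactivator ppargc1a was lower at D120 (-1.83 ± 0.56). Both had low mean levels. For esrrb these were 0.05 in WT_Fe_Ov against 0.98 in WT_Ma_Te at D30 and 0.20 against 1.92 at D120. For ppargc1a they were 0.12 against 0.45 at D120. The packaging factor of mitochondrial DNA, tfam, had -0.09 ± 0.08 at D30 and -0.50 ± 0.14 at D120, under the fold threshold. Also under it at D120 were the transcription factors gabpa (-0.996 ± 0.14) and nrf1 (-0.43 ± 0.13), the helicase twnk (-0.93 ± 0.16) and mterf1 (-0.73 ± 0.15), which had been called higher at D30 (1.27 ± 0.09). Without the fold threshold 6 regulators were higher and 7 lower at D120, with a median of -0.09. From D30 to D120 in WT_Fe_Ov, 2 of the 12 assembly factors and 1 of the 14 regulators were called higher and 0 of either list lower, where 12.3% and 8.86% of all genes were. Without the fold threshold 2 assembly factors were higher and 3 lower, and 2 regulators were higher and 4 lower, with medians of 0.09 and -0.24.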

How the data were processed

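The authors extracted RNA from 27 gonad samples, prepared poly(A) libraries with TruSeq reagents, trimmed the read pairs with fastp, aligned them with STAR to ASM223467v1 and assigned them to exons with featureCounts. The deposited counts are raw read pairs per gene with no normalization, from which the authors computed the deposited FPKM with DESeq2. No strand setting is given in the sources used here, so overlapping antisense genes cannot be separated. In the deposited files 9 symbols appear as dates, and those genes stay unnamed.

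Groups and replicate numbers follow the labels. The labels call the MT_Fe_Ov samples gonads of DMY knockout males, and the naming as ovaries of XY females follows the paper. Counts were tested with edgeR 4.0.16 (limma 3.58.1, R 4.3.3) in fits of the groups compared, with TMM factors, quasi-likelihood tests and Benjamini-Hochberg adjustment over every gene with 1 or more counts. A gene was called when its adjusted p did not exceed 0.05 and its log2 fold change was at least 1 in size. Standard errors were obtained by dividing the size of the log2 fold change by the square root of F. Levels are the deposited FPKM rescaled with TMM factors over all libraries. The lowest chi-square per degree of freedom between replicates was 2.37, so no library was counted as a duplicate. The p-values set the difference between groups against the spread between the libraries of a group, which need not be the spread between fish.

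Alternatives were DESeq2 1.42.0, DESeq2 size factors or library totals in edgeR, filterByExpr, no fold threshold, an adjusted p of 0.01, all 27 libraries in 1 fit, a replicate block and leaving out each library. An offset for exon length, a lowess trend with a span of 0.3, was chosen after seeing the data. Ratios of paralogs were not run, since 0 pairs were found. In counts simulated for the D30 comparison, 96 of 100 genes changed 2-fold and 100 of 100 changed 4-fold were recovered by adjusted p alone, without the fold threshold. Only genes with ample expected counts were changed, and the share recovered with the fold threshold was not measured. Equal numbers of genes were raised and lowered, so the simulation does not bear on the scaling between ovary and testis. The recovered shares count changed genes only, so they do not show how a trend with exon length moves unchanged short genes.

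The genes and lists were chosen with earlier results of these data known. Genes named with full values are the 3 with the largest log2 fold change in each direction among those called, and others were named to describe a class. Gene positions and biotypes come from RefSeq, ASM223467v1. The genes encoded in mitochondrial DNA were not analysed here (0 of 13 listed symbols found), and blood markers gave no value (0 of 7 found). The small RNA data of the study were not used here, and the values of 1 gene among the 61 are not reported here. Figures were drawn with matplotlib 3.10.9.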

Additional observations from a re-analysis of the deposited data

Results flagged for a closer look

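The difference between ovary and testis was not the same at D30 and D120 for 28 of the 61 genes, by the interaction term of edgeR, and in all 28 it moved towards the ovary, against 20.8% of all genes. The median of the 61 was 0.98 and that of genes with exons of at most 697 bases 0.97. The largest changes were those of atp5mc3 at 2.32, ndufs3 at 2.01 and atp5f1e at 1.99 on the log2 scale. With the offset for exon length, the value of atp5f1e was 0.45, only 3 of the 28 were still called, and 7 genes moved towards the testis.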

How the results depend on the processing

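No gene among the 3 largest in each direction of a comparison changed sign under any alternative. Of these results, 7 lost their call with the length offset, 3 with library totals and 1 each with DESeq2, DESeq2 size factors and filterByExpr. Leaving out 1 library, the call was lost in 4 fits and kept in 230. Other named genes were not part of this check. In the counts of called genes, scaling to library totals gave 39 genes at D30 and 17 at D120 for WT_Fe_Ov against WT_Ma_Te, 33 and 18 for MT_Fe_Ov against WT_Ma_Te, 20 for the D30 to D120 change in WT_Ma_Te, 24 for that in MT_Fe_Ov and 48 for the interaction. The median of all genes then shifted by -0.95 and -0.32, -0.86 and -0.37, -0.42, 0.23 and 0.63. Without a fold threshold the count for WT_Fe_Ov against WT_Ma_Te was 56 at D30, where 33.2% of all genes tested were higher and 42.8% lower. At D120 it was 48, against 30.7% and 35.6%. The changes in WT_Fe_Ov and WT_Ma_Te gave 56 (22.1% and 21.6%) and 41 (29.6% and 31.9%). For MT_Fe_Ov against WT_Ma_Te the counts were 55 at D120 and 29 at D30. There were 2 at D30 between the ovaries, 37 for the change in MT_Fe_Ov and 46 for the interaction. Shares of all genes are not given for these comparisons, so their counts are not set against the rest of the transcriptome. Between the D30 ovaries, DESeq2 gave 2 and the fit of 27 libraries 2. The length offset gave 15 at D120 for WT_Fe_Ov, 15 for MT_Fe_Ov, 2 and 2 for the changes in WT_Fe_Ov and MT_Fe_Ov, and 10 for the interaction. Leaving out 1 library, the totals at D10 were 0 to 0, 0 to 3 and 0 to 0 for WT_Fe_Ov and then MT_Fe_Ov against the testis and then between the ovaries, at D30 11 to 14, 9 to 15 and 0 to 3, and at D120 24 to 29, 27 to 31 and 0 to 0. For the changes from D30 to D120 they were 22 to 26 in WT_Fe_Ov, 7 to 10 in WT_Ma_Te and 10 to 26 in MT_Fe_Ov, and for the interaction 25 to 32. Apart from the length offset, whose construction removes the trend with exon length, and library totals, whose construction removes the TMM factors, the cause was not tested.

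With the replicate number as a block, 24 genes were higher and 3 lower for WT_Fe_Ov and 28 and 1 for MT_Fe_Ov against WT_Ma_Te at D120, and 6 and 6 for both at D30. The changes from D30 to D120 gave 25 and 0 in WT_Fe_Ov, 3 and 6 in WT_Ma_Te and 14 and 0 in MT_Fe_Ov, and the interaction 28 and 0. Whether equal numbers pair the samples could not be decided from correlations, since deviations from a mean of 3 libraries constrain each other. The deviations of 27 pairs of libraries with equal numbers correlated at -0.17 to 0.22, 8 of them over 0.1, and 54 pairs with different numbers at -0.24 to 0.21, 7 over 0.1.

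Depth limits ndufs1 in the ovary most, with counts of 5 to 13 at D30. With 3 libraries in a group, small differences between the ovaries could be missed.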

Other observations

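Genes of neighbouring pathways of energy metabolism were described in the same comparisons. Of 21 listed genes of the TCA cycle, 14 were found, and 1 was higher and 0 lower in WT_Fe_Ov than in WT_Ma_Te at D30, with a median log2 fold change of 0.41 (all genes tested: 22.2%, 35.6% and -0.56). At D120, 4 were higher and 1 lower, with a median of 0.62 (all genes tested: 23.6%, 29.6% and -0.31), a share of higher genes near that of all genes. Among them, fumarase fh (1.81 ± 0.12), suclg1 (1.50 ± 0.11), idh3a (1.39 ± 0.12) and citrate synthase cs (1.21 ± 0.10) were higher, and pdhb, a subunit of pyruvate dehydrogenase, was lower (-1.31 ± 0.11). Among genes outside the 61 with a mean count of at least 100, the medians were 0.27 at D30 and 0.07 at D120. From D30 to D120 in WT_Fe_Ov, 0 of the 14 were called.

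Of 36 listed genes of glycolysis, 7 were found, of which 2 were higher and 3 lower at D30 and 2 higher and 1 lower at D120, with medians of -0.56 and -0.08. Of all genes tested, 22.2% were higher and 35.6% lower at D30, and 23.6% and 29.6% at D120. The gene gapdh, a glycolytic dehydrogenase, had a log2 fold change of 5.03 ± 0.11 at D30 and 3.74 ± 0.19 at D120 (WT_Fe_Ov against WT_Ma_Te), and the kinase pgk1 had 1.21 ± 0.07 and 1.74 ± 0.12. The enolase eno4 had -4.54 ± 0.22 and -6.23 ± 0.19, and eno2 had -3.95 ± 0.20 at D30 and -0.14 ± 0.32 at D120, where it was not called. Which other copies of these enzymes are expressed was not tested, since many genes of the list were not found by symbol.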
